A study of Mus musculus with 16 samples.

Results

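The regions described here are stretches of open chromatin that were found in mouse kidney and in no other tissue of the series. They were chosen by their presence in the deposited peak lists: a region (1 unique chromosome, start and end) of the fed kidney library with a q value under 0.01 was kept where it overlapped by at least 1 bp a region of the fasting kidney library with q under 0.01, and where no deposited peak of any of the 14 libraries of other tissues overlapped it. There were 22221 such private regions among the 134447 kidney regions open in both states (16.5%), out of 165716 regions in the fed kidney list and 3007809 regions in all 16 lists. They overlapped 21765 different regions of the fasting kidney list, so some of them shared a fasting region.

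The assay was ATAC-seq: the transposase Tn5 cuts accessible DNA and inserts sequencing adapters. The 2 kidney groups were adult male C57BL/6 mice that were either fed, with chow at all times, or fasting for a full day, and 7 further tissues (lung, heart, liver, spleen, muscle and both brown and white adipose) came in the same 2 states. Each group was 1 library made from nuclei of frozen tissue pooled across animals of that state, so no group had a replicate and intervals given below cover counting error only. The material was bulk tissue, and in such bulk samples fewer cells of a type and less open chromatin per cell cannot be told apart.

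The kidney filters blood in the glomerulus and recovers most of the filtrate along the nephron, first in the proximal tubule, then in the loop of Henle, the distal convoluted tubule and the collecting duct. Each segment runs its own set of transporters, and transcription factors of the HNF1, HNF4, PAX, IRX and POU families are known to shape these segments. Regions open in 1 organ are mostly enhancers, short stretches at a distance from a gene start where such factors bind.

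All 299529 rows of the fed and 299498 rows of the fasting kidney list had q under 0.01, so the length of the list and not q ended both. The tag number at each summit was recovered from the deposited fold enrichment and p value, and the lowest expected number, which follows depth, was 4.67 tags in fed and 4.64 tags in fasting kidney against 2.80 to 12.8 tags in the other libraries. The fed white adipose library stood apart in what it shared with kidney. It alone kept 2656 kidney regions out of the private set, while the fasting white adipose library alone kept out 342, and the next highest numbers were 2159 for fasting and 1107 for fed liver. The promoters of Pax2 and Pax8, transcription factors of the kidney and of the genital ducts, held peaks at percentile ranks of 86.6 and 84.0 of the fed white adipose list and none within 1000 bp of a start in fasting white adipose. Fed liver also had a peak at Pax8 (rank 73.8) but none at Pax2. At Emx2, a further kidney factor, both white adipose libraries had a peak, at ranks of 81.6 in fed and 67.4 in fasting, and so had fed liver (66.2). In the same fed library 7 of 12 marker genes of the epididymis, the duct that stores sperm, had a peak within 1000 bp of a start, against 1 of 12 in fasting white adipose and 2 of 12 in fed kidney. The marker list was added after the data were seen, and its part in the result was not tested. Without this library in the exclusion the number of private regions was 24877.

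Sequence was not used to choose the regions, so the letters around their summits were searched for short motifs of 12 factor families on both strands, in 201 bases centred on each fed summit. The motif searched for HNF1 was GTTAAT, 1 free base and ATTAAC, with 1 mismatch allowed, and that for HNF4 was CAAAGTCCA with none. The sequences below are shown because these families set the kidney regions most apart from those of other tissues. They are printed from the RefSeq copy of GRCm38, plus strand, with the matched letters in capitals. For each motif the first is the strongest private region that holds it. The others are among the strongest near genes of the nephron lists used below, picked after their values were seen. Few regions with these letters were nearest to such a gene: 8 of 286 with HNF1 letters (2.80%) and 11 of 642 with HNF4 letters (1.71%). Of all 22221 private regions 558 were, a share between those of HNF1 and HNF4, so the examples do not show that these letters mark nephron genes. A match is a description of letters and not a site shown to be bound.
HNF1, nearest start Tfec, chr6:16503833-16504033: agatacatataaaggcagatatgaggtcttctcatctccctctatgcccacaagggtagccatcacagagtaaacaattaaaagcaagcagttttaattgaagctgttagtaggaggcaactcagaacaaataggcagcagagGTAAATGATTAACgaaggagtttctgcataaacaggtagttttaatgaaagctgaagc
HNF1, nearest start Ppp1r1a, chr15:103542584-103542784: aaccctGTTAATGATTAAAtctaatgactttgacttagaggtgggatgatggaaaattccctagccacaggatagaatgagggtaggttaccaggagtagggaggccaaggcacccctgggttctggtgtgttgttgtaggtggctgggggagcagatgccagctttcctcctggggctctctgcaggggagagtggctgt
HNF1, nearest start Cubn, chr2:13479253-13479453: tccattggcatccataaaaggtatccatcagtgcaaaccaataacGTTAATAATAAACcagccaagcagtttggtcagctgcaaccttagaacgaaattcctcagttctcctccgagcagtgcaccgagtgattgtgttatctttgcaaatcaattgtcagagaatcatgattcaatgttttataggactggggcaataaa
HNF4, nearest start Vwc2, chr11:10477804-10478004: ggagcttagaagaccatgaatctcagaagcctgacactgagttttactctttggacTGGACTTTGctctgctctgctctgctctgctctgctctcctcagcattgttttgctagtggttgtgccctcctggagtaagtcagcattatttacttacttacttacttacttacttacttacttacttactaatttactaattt
HNF4, nearest start Lhx1, chr11:84526007-84526207: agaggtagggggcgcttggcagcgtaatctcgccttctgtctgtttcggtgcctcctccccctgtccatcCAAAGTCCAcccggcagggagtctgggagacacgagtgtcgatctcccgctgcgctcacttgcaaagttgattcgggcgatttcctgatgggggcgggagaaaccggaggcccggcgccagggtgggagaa
HNF4, nearest start Lrp2, chr2:69445944-69446144: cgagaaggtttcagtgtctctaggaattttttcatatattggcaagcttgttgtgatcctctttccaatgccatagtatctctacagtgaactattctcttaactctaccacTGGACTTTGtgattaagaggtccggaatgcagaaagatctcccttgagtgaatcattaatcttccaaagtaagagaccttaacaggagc
HNF4, nearest start Sim1, chr10:50981891-50982091: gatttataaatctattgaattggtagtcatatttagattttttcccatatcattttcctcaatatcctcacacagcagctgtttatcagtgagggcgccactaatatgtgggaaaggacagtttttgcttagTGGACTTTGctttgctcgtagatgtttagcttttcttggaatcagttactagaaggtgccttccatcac

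The Tfec region lay in intergenic sequence 331330 bp from the start of Tfec and held 174 tags at its summit in fed and 129 tags in fasting kidney. The Ppp1r1a region was intergenic, 4681 bp from the start of Ppp1r1a, a phosphatase inhibitor of the thick ascending limb, and held 184 and 185 tags. The Cubn region lay in an intron 12460 bp from the start of Cubn, which encodes the endocytic receptor cubilin, with 75 tags in fed and 66 tags in fasting kidney. Among the regions with HNF4 letters, the one nearest Vwc2 was intergenic with 237 and 163 tags. The summit nearest Lhx1, a transcription factor of early nephron formation, lay outside that gene, 572 bp from its start, with 156 and 177 tags. It fell in an intron of another annotated gene. The intronic region of Lrp2, which encodes the endocytic receptor megalin, held 125 and 103 tags at 63101 bp from the start. The intronic region of Sim1 held 62 and 72 tags at 86340 bp from the start.

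HNF1 letters stood in 286 of the 22221 private regions, or 1.29% (95% exact binomial interval 1.14 to 1.44), against 0.609% (0.565 to 0.657) of the 112226 other kidney regions open in both states and 0.721% of all of them. HNF4 letters stood in 642 private regions, or 2.89% (2.67 to 3.12), against 1.30% (1.23 to 1.37) of the other kidney regions and 1.56% of all of them. Private sets built by the same rule for the other tissues held fewer. Liver, which also expresses both families, had HNF1 letters in 0.565% and HNF4 letters in 1.75% of its 11861 private regions. The remaining 6 tissues had at most 0.0385% for HNF1 and 0.217% for HNF4. Kidney ranked first of 8 tissues for both, which gave p = 0.125 in an exact permutation of the tissue label (two-sided), the smallest p that 8 tissues allow, so this design cannot reach 0.05. Of the 286 private regions with HNF1 letters 1 also held HNF4 letters, which 2.89% of all private regions held. Whether the motifs avoid each other was not tested. HNF1 letters were about as frequent in the private regions within 3000 bp of a start (1.16%, 0.877 to 1.51) as farther away (1.32%, 1.157 to 1.501), and the other kidney regions had 0.412% near starts and 0.743% farther away. HNF4 letters were found in 2.75% of the near and 2.93% of the far private regions, and in 0.885% and 1.58% of the other kidney regions.

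**Figure D1:**
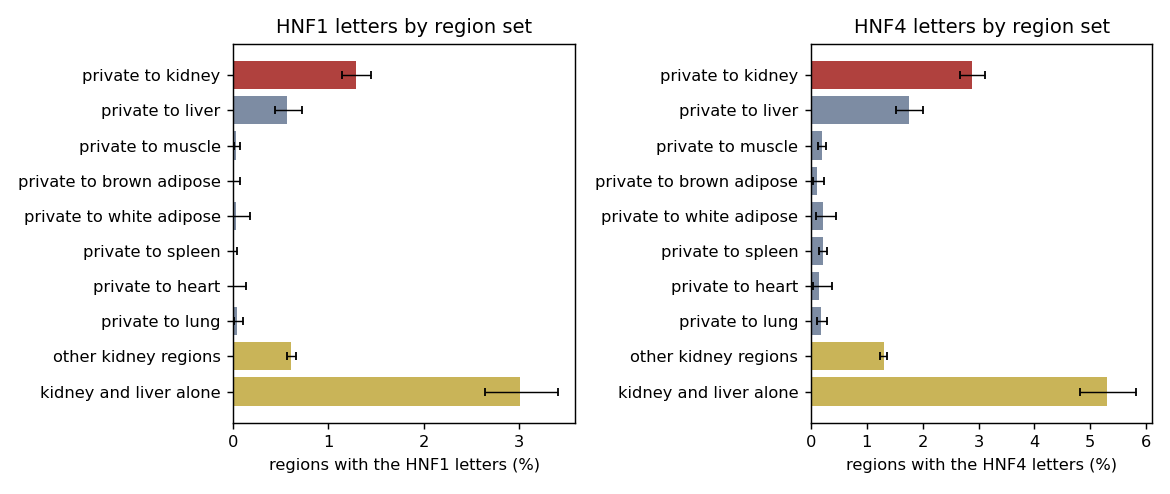
Share of regions (%) with HNF1 letters (left) and HNF4 letters (right) within 100 bp of the summit, for the private regions of each tissue, the other kidney regions open in both states, and kidney regions whose only other tissue was liver. Bars are shares and whiskers 95% exact binomial intervals. Kidney exceeds every other private set (1.29% and 2.89%), and the regions of kidney and liver alone are higher still (3.01% and 5.30%).

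The kidney regions that missed the private set through a single other tissue differed in their letters according to that tissue. In the 7862 regions that liver alone also had, HNF1 letters reached 3.01% (2.65 to 3.42) and HNF4 letters 5.30% (4.82 to 5.82), both above the shares in the private regions. In the 3284 regions that white adipose alone also had, the shares were 0.914% (0.617 to 1.30) for HNF1 and 0.639% (0.396 to 0.976) for HNF4. Letters of ERR, the estrogen-related receptors of oxidative metabolism (TCAAGGTCA), stood in 0.833% (0.717 to 0.961) of the private regions, in 2.02% (1.34 to 2.93) of the 1335 regions shared with brown adipose alone and in 1.92% (1.25 to 2.83) of the 1299 shared with heart alone. GRHL letters (AACCNGTT), of the grainyhead-like factors of epithelia, stood in 2.16% (1.97 to 2.36) of the private regions and in 3.72% (2.90 to 4.71) of the 1799 regions shared with lung alone.

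For the remaining motifs the private regions differed less from the other kidney regions or held fewer. ERR letters were at 0.599% and GRHL letters at 1.82% in the other kidney regions, both below the private regions. Brown adipose had the highest ERR share of the private sets with 1.52%, and for GRHL among the private sets kidney stood second to lung (2.23%, 1.96 to 2.53), with overlapping intervals. FOX letters (TGTTTAC) stood in 2.88% of the private and 2.88% of the other kidney regions, while liver and lung private sets had 6.66% and 8.68%. GATA letters (AGATAAG) reached 1.602% against 1.54% in the other kidney regions, AP-1 letters (TGANTCA) 7.38% against 6.71%, and MEF2 letters (CTATTTTTA) 0.347% against 0.369%. Letters of the glucocorticoid receptor (AGAACA, 3 free bases and TGTTCT, with 1 mismatch allowed) stood in 0.203% against 0.225%. Letters of ETS factors (CCGGAAGT) were rarer in the private regions with 0.180% against 0.975%. So were those of C/EBP (TTGCGCAA) with 0.0135% against 0.0811%, and a short part of the CTCF motif (AGGNGGC) with 11.03% against 23.3%. GC content was lower too, with a median of 45.8% (quartiles 41.8 and 50.2) against 51.7% (47.3 and 57.2), the lowest of the 8 private sets. The part of the GC difference in these shares was not tested. For ERR and GRHL the strongest private regions are shown, since both factors are textbook regulators of tubule epithelium and neither set kidney apart from all other tissues.
ERR, nearest start Epha4, chr1:77447139-77447339: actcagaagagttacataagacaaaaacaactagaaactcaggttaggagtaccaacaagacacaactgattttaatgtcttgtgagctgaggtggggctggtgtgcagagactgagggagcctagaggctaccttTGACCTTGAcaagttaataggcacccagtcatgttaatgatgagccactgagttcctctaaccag
GRHL, nearest start Pla1a, chr16:38398301-38398501: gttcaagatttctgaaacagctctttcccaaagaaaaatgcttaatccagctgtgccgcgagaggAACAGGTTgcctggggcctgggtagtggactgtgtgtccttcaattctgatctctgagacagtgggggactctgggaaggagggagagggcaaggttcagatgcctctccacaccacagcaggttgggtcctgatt

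Private regions lay farther from annotated starts than the other kidney regions. The median distance of the summit to the nearest GENCODE vM21 transcript start was 10645 bp (quartiles 3710 and 27889) against 5347 bp (750 and 15223). Within 3000 bp of a start lay 21.3% (20.8 to 21.8) of the private and 40.3% (39.96 to 40.5) of the other kidney regions. Within 1000 bp the shares were 8.46% and 27.8%, and beyond 100000 bp they were 4.46% and 1.34%. Read the other way, the share of kidney regions that were private was 5.69% under 1000 bp from a start, 16.9% from 1000 to 3000 bp, 17.9% from 3000 to 10000 bp, 20.4% from 10000 to 50000 bp, 29.6% from 50000 to 100000 bp and 39.8% beyond. Kidney was not unusual in this among the private sets. The share near a start ran from 19.7% in lung to 23.2% in liver, with kidney at place 4 of 8 (exact permutation, two-sided p = 1). Introns held 54.2% of the private summits, intergenic sequence 38.8%, noncoding exons 2.61%, UTRs 2.23% and coding exons 2.17%.

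Private regions were weaker and narrower than the other kidney regions, and strength is tied to the rule, since a weak region is also easier to miss in another list. The median percentile rank of p in its own list was 49.6 in fed and 48.8 in fasting kidney, against 61.5 and 66.1 for the other regions, and the median summit held 41 and 35 tags against 58 and 58. The private share was 24.99% at mean ranks under 10 and 2.45% at mean ranks above 90, where 403 private regions remained. At equal strength the distance to starts still differed: in every bin of 10 ranks fewer private than other regions lay within 3000 bp of a start, from 21.8% against 30.1% in the lowest bin to 16.6% against 69.9% in the highest. From the weakest to the strongest of 4 equal groups of private regions by rank, HNF1 letters went from 0.972% to 1.62% and HNF4 letters from 2.21% to 3.62%. The median width was 239 bp against 286 bp, and soft-masked repeats made up a median of 10.4% of the window against 2.49%. Some private regions were flanks of wider openings: 2780 (12.5%) lay within 200 bp of a kidney region that another tissue also had, and for 1063 (4.78%) the overlapping fasting region was itself overlapped by a peak of another tissue.

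**Figure D2:**
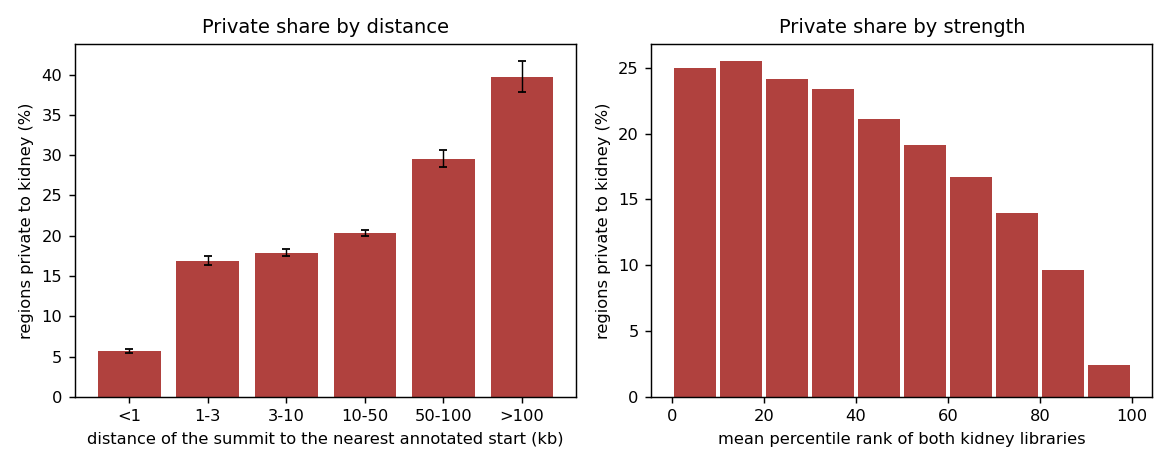
Share of kidney regions open in both states that were private (%), by distance of the summit to the nearest annotated start (left, kb, with 95% exact binomial intervals) and by mean percentile rank of p in both kidney lists (right, bins of 10). The share climbs from 5.69% next to starts to 39.8% beyond 100000 bp and drops to 2.45% at mean ranks above 90.

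By chromosome the private share ran from 13.5% on chromosome 17 to 19.0% on chromosome 14 among the autosomes, and was 24.3% (22.7 to 26.0) on the X chromosome with 628 of 2584 regions. The X chromosome also stood above the whole set in muscle (22.4% against 12.2%), brown adipose (9.54% against 5.84%), white adipose (4.04% against 3.36%) and lung (9.59% against 8.78%). It stood below the whole set in liver (10.7% against 11.4%), spleen (12.9% against 14.9%) and heart (1.15% against 3.55%). On the Y chromosome 3 of 34 kidney regions were private.

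The strongest private region by mean rank is shown as the clearest case of an opening found in kidney alone. It lay on chromosome 5, at positions 53759548 to 53760519, in intergenic sequence 49510 bp from the start of Tbc1d19, and held 324 tags in fed and 343 tags in fasting kidney. None of the 12 motifs was found within 100 bp of its summit, which says only that these letters are not in the window. Its percentile rank was 98.3 in the fed and 99.0 in the fasting list.
Strongest region, nearest start Tbc1d19, chr5:53759996-53760196: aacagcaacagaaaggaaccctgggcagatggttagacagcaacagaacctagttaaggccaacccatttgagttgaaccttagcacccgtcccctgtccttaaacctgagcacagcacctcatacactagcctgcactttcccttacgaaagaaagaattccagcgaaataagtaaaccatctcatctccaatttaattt

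The other 9 of the 10 strongest private regions had mean ranks of 97.5 to 98.3. Their nearest protein-coding starts were those of Rarb, a retinoic acid receptor (325 tags in fed and 220 in fasting, 50310 bp from the start), and of Gnpnat1, Ptprd, Tmem182, Dnm2, Terf1, St6galnac3, Trhr and Pdzd2, although for 5 of them (Gnpnat1, Ptprd, Tmem182, Terf1 and Pdzd2) another annotated start was closer. Only 1 of the 10, that of St6galnac3, lay within 3000 bp of the nearest start of a protein-coding gene. In these 10 the fasting value was 0.682 to 1.08 times the fed value after division by the library background.

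Each private region was assigned to the protein-coding gene with the nearest start, which does not show that it acts on that gene. By this count 7888 of 21911 protein-coding genes (36.0%) had at least 1 private region and 292 had 10 or more. The 219 genes with the most held 16.04% of the private regions. The most had Glis3, a zinc-finger transcription factor whose loss gives cystic kidneys, with 63 private regions among its 105 kidney regions (60.0%). The other 7 private sets together had 6 regions at Glis3. Sall1, a zinc-finger factor needed for the kidney to form, had 38 private regions, and liver had 14 of its own there. Bnc2, a zinc-finger protein, had 37, and Dab2, the adaptor through which megalin is internalised, had 37 of 61 (60.7%). Pde4d, a phosphodiesterase of cAMP, had 36, but muscle had 50 private regions of its own at this gene. Fut9, a fucosyltransferase, had 36, which made up 81.8% of its kidney regions.

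Of the next genes, Nr2f2 (COUP-TFII) had 34 private regions, Esrrg, an estrogen-related receptor, 34, Pou3f3, a POU factor of the loop of Henle and distal tubule, 32, and Trps1, a zinc-finger repressor, 28. Megalin's gene Lrp2 had 34 of 49 (69.4%). Further genes of high count were Olfm4 with 31, Erc2 with 30, Mast4 with 29, Auts2 with 27, Nhs with 27, Pter, a phosphotriesterase-related protein, with 27, Fras1, a matrix protein whose loss can leave the kidney unformed, with 26, and Slco1a6, an organic anion transporter, with 26. Nhs and Slco1a6 had no private region in any of the 7 other tissues, and Lrp2 and Fut9 had at most 2 in any of them. Other genes had more elsewhere, with 15 at Auts2 in muscle, 11 at Bnc2 in white adipose, 10 at Mast4 in spleen and 9 at Trps1 in brown adipose. Large genes and gene deserts collect more regions, so counts were also set against the length of sequence nearest to each gene. Lrp2 had 19.8 and Slco1a6 16.5 private regions per 100 kb of such sequence, Glis3 10.3, Pter 8.36 and Fut9 6.80, whereas Olfm4 had 1.32, Auts2 1.39 and Trps1 1.83.

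Private regions were also looked at for neighbours. Where 3 or more of them were linked by gaps of at most 10000 bp they were called a cluster. There were 1382 clusters with 5129 private regions (23.1%, 22.5 to 23.6), 1272 of which were nearest to a single gene, while 11544 private regions (52.0%) had no neighbour within that gap. The clustered share depends on the settings: it was 13.5% with a gap of 5000 bp, 37.7% with 20000 bp, 13.95% with q under 1e-06 and 1.89% with the 50000 strongest regions of each library. Muscle had the highest share of its private regions in clusters, 27.3%, and white adipose the lowest, 2.60%, but these sets also differ in size and larger sets cluster more readily. Only 10 clusters held 10 or more.

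The largest cluster spanned 77.7 kb on chromosome 2 (69541311 to 69618969) at Lrp2 and Bbs5 and held 25 private regions among 36 kidney regions. The second, 49.6 kb at Pter on the same chromosome, held 18 private regions and no other kidney region. The third, 32.4 kb at Slco1a6 on chromosome 6, held 16, again with no other kidney region, and 10 of these lay within 3000 bp of a start. A further cluster of 12 lay next to it at Gm6614 and Slco1a6. The Slco1a genes stand in a row as similar copies, so reads may have been split among them, which was not tested. The clusters at Glis3 and at Dab2 held 14 each, that at Slc5a12, a lactate transporter of the proximal tubule, 12 in 18.9 kb, that at Gm6657 11, and those at Tmem174 and at Gcnt1 10 each. Every region of these 10 clusters but 4 differed by less than 2-fold between fed and fasting kidney, counted at the strongest fasting summit. Of all private regions 8.23% differed by at least 2-fold in this count. No HNF1 letters were found in any of the 10 clusters. With HNF1 letters in only 1.29% of all private regions, so small a set would hold few, and their absence says little.

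**Figure D3:**
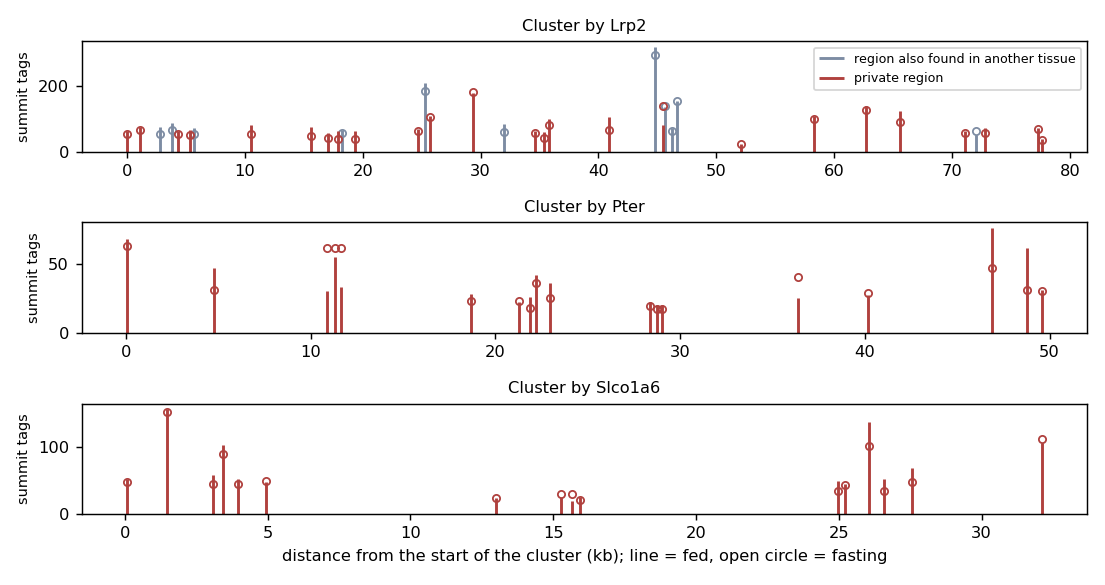
Kidney regions in the 3 largest clusters of private regions, by distance from the start of the cluster (kb). Lines give the summit tags in fed and open circles those in fasting kidney; red marks private regions and blue-grey regions also found in another tissue. The Pter and Slco1a6 clusters hold private regions only, and at Lrp2 the strongest summits of all belong to regions found elsewhere too, with 318 and 207 tags in fed.

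Gene lists of nephron segments were then read against the private regions. These lists were written with results of these data known, so their counts describe and do not test. Of 114 genes in the 8 nephron lists, 89 (78.1%) had a private region, against 36.0% of all protein-coding genes, with 558 private regions in all. Of the kidney regions at these genes 31.1% were private, against 16.5% at all genes. The median gene of these lists had 2 private regions and the median protein-coding gene 0.

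The proximal tubule had the most. Of 16 transporter and receptor genes of this segment 15 had a private region, 124 in all, and 40.4% of their kidney regions were private. Beside Lrp2 these were Slc4a4, the basolateral bicarbonate exit, with 13, Slc5a12 with 13, Slc7a13, an amino acid transporter of the last proximal segment, with 13, Slc22a12, the urate transporter, with 11, Cubn with 7 and Slc22a8, an organic anion transporter, with 7. The 1 without any was Slc22a7. Slc34a3, a phosphate transporter, had 2 kidney regions, both private and both within 3000 bp of a start, with a highest mean rank of 90.7. At the start of Slc5a12 kidney held peaks at ranks of 74.3 in fed and 83.0 in fasting, and no other library had a peak within 3000 bp. Of 16 metabolic genes of the proximal tubule 13 had a private region, 54 in all. Kap, the androgen-controlled kidney protein, had 15 of 23, Acsm2, an acyl-CoA synthetase, 8 of 14, Gatm, the first enzyme of creatine synthesis, 7 of 14, Mep1a, a brush-border protease, 7 of 12, and Miox, which breaks down inositol, 3 of 5. Fbp1, Ggt1 and Cyp27b1 had none, and at each of their starts the highest rank outside kidney was that of a liver or spleen library.

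All 12 genes of the loop of Henle had a private region, 39 in all (28.3% of their kidney regions). Ptger3, a prostaglandin receptor, had 8, Slc14a2, the urea transporter, 8, Cldn10, a tight junction protein, 7, and Slc12a1, the target of loop diuretics, 4 of 7. Umod, which encodes uromodulin, had 2 of 4, and its start ranked at 92.0 in fed and 91.6 in fasting kidney while the highest rank in another library was 25.03. In the distal convoluted and connecting tubule 7 of 12 genes had one, 20 in all. Kcnj16, a potassium channel subunit, had 6, Trpm6, the magnesium channel, 4, and Slc12a3, the target of thiazides, 3, all 3 within 3000 bp of a start.

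In the collecting duct, of 12 principal cell genes 9 had a private region, 31 in all, with 12 at Nr3c2, the mineralocorticoid receptor, 6 at Gata3, 5 at Aqp4, 2 at the vasopressin receptor gene Avpr2 and none at Aqp2. Of 12 intercalated cell genes 4 had one, 10 in all (11.4% of their kidney regions), with 3 each at Rhcg and Slc26a4 and 2 each at Atp6v1g3 and Slc4a1. Of 12 podocyte genes 8 had one, 16 in all (10.7%), with 5 at Ptpro, 3 at Clic5 and none at Nphs1, the gene of nephrin. The last 2 lists lay below the 16.5% over all kidney regions.

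Of 22 transcription factors of the kidney 21 had a private region, 264 in all, and 37.4% of their kidney regions were private. Beside Sall1, Esrrg and Pou3f3 the most were at Emx2 with 17, Pax2 with 17, Tfap2b with 17, Irx3 with 15 and Irx2 with 13, and Tfap2a had none. Another 9 kidney regions at Pax2 and 9 at Glis3 were kept out by white adipose alone, the tissue whose fed library stood apart.

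Lists of cells that a kidney sample could also hold, or that the other tissues hold, had 1 to 9 private regions each. In the list of interstitium and vessels 4 of 12 genes had one, 7 in all, and in the adrenal cortex list 1 of 10, at Nr5a1. The urothelium list had 2 of 10 (3 regions at Krt20), the hepatocyte list 2 of 10, skeletal muscle 1 of 10, adipocyte 1 of 10, lymphocyte 4 of 10 and lung epithelium 4 of 10. As a share of the kidney regions at these genes, lymphocyte (9 of 38, 23.7%), hepatocyte (6 of 31, 19.4%) and lung epithelium (6 of 32, 18.8%) lay above the 16.5% over all kidney regions. Urothelium (10.5%), interstitium and vessels (9.21%), skeletal muscle (6.25%), adipocyte (5.56%) and adrenal cortex (3.45%) lay below it. Of the 10 adrenal cortex genes kidney had a peak within 3000 bp of a start at Nr5a1 (ranks 80.5 in fed and 75.9 in fasting) and Star (44.2 and 44.1), and none in either state at the other 8, the steroid hydroxylase genes Cyp11a1, Cyp11b1, Cyp11b2 and Cyp21a1 among them. The part of other cell types in the private regions was not tested. Genes of the fasting response had 49 private regions at 11 of 20 genes, only 9.16% of their 535 kidney regions, with 16 at Ppargc1a, 8 at Irs2 and 7 at Foxo1. The mean rank of the strongest peak at the starts, within 3000 bp, was highest in kidney among the 8 tissues for most nephron lists. These were both proximal tubule lists (88.2 and 86.5), the loop of Henle (74.5), the distal convoluted tubule (78.8), the principal cell (80.04) and the transcription factors (88.0). It was not for podocytes or intercalated cells. The median within 1000 bp was slightly higher in lung than in kidney for principal cells (82.5 against 82.1 in fed, 85.4 against 84.8 in fasting). Fed liver was higher still with 83.4, and fasting liver lower with 65.2. For the distal list spleen had 82.8 against 80.3 in fed and 83.1 against 86.1 in fasting.

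**Figure D4:**
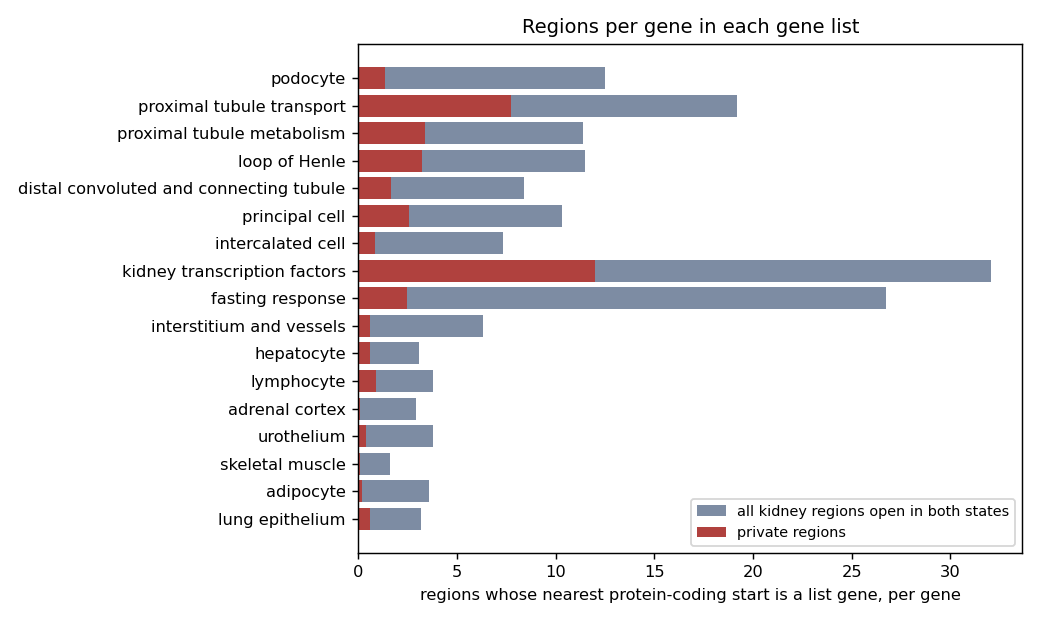
Kidney regions per gene (regions whose nearest protein-coding start belongs to a gene of the list, divided by the number of genes) for each gene list; blue-grey bars are all kidney regions open in both states and red bars the private regions among them. Proximal tubule transport (40.4% private) and the kidney transcription factors (37.4%) have the largest red share, and genes of the fasting response have many regions of which 9.16% are private.

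Fed and fasting kidney were compared by the tags at the summit divided by the library background. The rule required a peak in both states, so a region open in 1 state only cannot be among the private regions, and with 1 library per state no p value can be given. At the strongest summit of the overlapping regions 640 private regions (2.88%) were at least 2-fold higher in fasting, where 3.61% of all kidney regions were, and 1189 (5.35%) at least 2-fold lower, where 1.82% of all kidney regions were. The 5 largest differences upward were of short fed regions assigned to Cyp2s1, Adamts9, Dr1, Kcnk2 and Clip4, at 8.27 to 10.7 times the fed value. Their nearest protein-coding starts lay 746 bp (Clip4) to 143668 bp (Adamts9) away. These fed regions were 77 to 258 bp wide and the fasting summit lay 301 to 650 bp away, so different points were compared. Of the 640 regions 387 overlapped a fasting region that another tissue also had.

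The comparison was therefore repeated between summits within 50 bp of each other, an addition made after these values were seen, which could be done for 19803 private regions (89.1%). At matched summits 73 private regions (0.369%, 0.289 to 0.463) were at least 2-fold higher in fasting, against 0.482% of all kidney regions compared. Lower by at least 2-fold were 1183 (5.97%, 5.65 to 6.31), against 2.08% of all and 1.33% (1.27 to 1.41) of the other kidney regions. The median log2 ratio was -0.22 (quartiles -0.52 and 0.05) for the private and -0.08 (-0.31 and 0.13) for the other regions, and 70.3% against 60.6% were lower in fasting. Over all kidney regions compared the median was -0.10, and with this set to 0 the medians were -0.12 and 0.02, with 4.34% against 0.854% at least 2-fold lower. The private regions had the higher share in each range of mean tags up to 160. At a mean of 20 to 40 tags 7.09% against 2.32% were at least 2-fold lower. The shares were 7.69% against 1.90% at 40 to 80 tags and 2.43% against 0.542% at 80 to 160 tags. Above 160 tags they were 0.267% of 375 private and 0.00600% of 16664 other regions, too few lower regions to compare. In that range 0.267% of the private and 0.0360% of the other regions were at least 2-fold higher. With the coordinates taken from the fasting list the shares at least 2-fold lower, over all tag numbers, were 5.61% and 1.03%. With 1 library per state, library quality and the fasting state cannot be told apart.

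**Figure D5:**
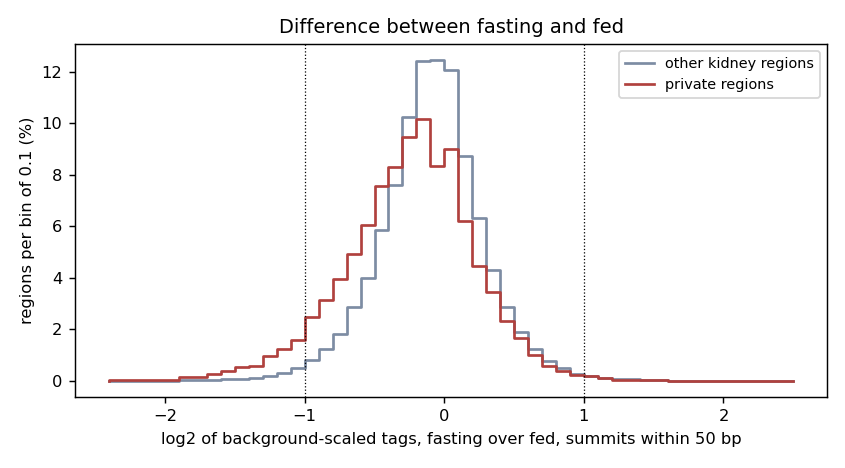
Distribution of the log2 ratio of background-scaled summit tags, fasting over fed kidney, at summits within 50 bp of each other, for the private regions (red) and the other kidney regions open in both states (blue-grey), as % of regions per bin of 0.1. Dotted lines mark 2-fold. The private regions sit farther left, with 5.97% beyond the lower line against 1.33%.

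By the largest fall at the strongest summit, the first 5 private regions had their nearest protein-coding starts at Rapgef5, Efr3a, Stx16, Akap14 and Gtdc1. These starts were 235463, 12364, 44532, 3772 and 251614 bp away, and for all but Akap14 another annotated start was closer. Of these regions 4 (all but that of Rapgef5) were also among the 10 largest at matched summits. Near Efr3a 85 tags in fed stood against 16 in fasting, near Stx16 105 against 20, and near Akap14 74 against 15, between 4.89 and 5.27 times lower after scaling. Genes with several such regions were looked up after their values were seen. Of 7478 genes with matched private regions 44 had at least 3 that were 2-fold lower in fasting, and 1 had at least 3 that were 2-fold higher.

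Kap had 14 matched private regions, of which 6 were at least 2-fold lower in fasting. The one with most tags in fed, at 133849242 to 133849954 of chromosome 6 and 4211 bp from the start, had 254 tags in fed (95% Poisson interval 224 to 287) and 105 in fasting (85.9 to 127). The one at the start itself, 107 bp away, had 143 against 69. Others hardly differed, such as the one of highest mean rank (91.3), which lay 17669 bp upstream and had 205 against 176 tags. At Keg1, a kidney-expressed gene of the glycine N-acyltransferase family on chromosome 19, all 5 matched private regions were at least 2-fold lower. They had 117 against 38 tags, 97 against 39, 91 against 35, 142 against 38 and 109 against 44. For those with 91, 142 and 109 tags in fed a start of Gm15962 was closer, at 7814, 214 and 454 bp. The start of Keg1 lay 17575, 25175 and 25887 bp from them. The 6 other matched kidney regions at Keg1, found in other tissues too, had a median log2 ratio of -1.37, the same as the median of the private ones. Slc7a13 had 4 of 10 at least 2-fold lower, with 115 against 51 tags at the strongest, and Mpv17l, which encodes an Mpv17-like protein, 4 of 5. By list, proximal tubule metabolism had a median log2 ratio of -0.54 over 48 matched private regions, of which 41 were lower and 8 at least 2-fold lower, while the 115 other kidney regions at the same genes had -0.14. Kap held 14 of the 48 and 6 of the 8. Without it the median was -0.46 over 34 regions, of which 29 were lower and 2 at least 2-fold lower. Of all matched private regions 70.3% were lower and 5.97% at least 2-fold lower. The 2 of 34 lie close to this last share. Intercalated cells had -0.45 over 9, of which 8 were lower, proximal tubule transport -0.20 over 110, the loop of Henle -0.17 over 38, principal cells -0.07 over 29 and the distal convoluted tubule -0.01 over 17. Over all matched private regions the median was -0.22. Proximal tubule transport, the loop of Henle, principal cells and the distal convoluted tubule lie above it. The last 2 also lie above the median of all kidney regions compared (-0.10) and turn positive when that is set to 0.

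The gene with at least 3 private regions that were 2-fold higher in fasting was Ndrg1, a gene induced by hypoxia and stress. Of its 7 matched private regions all were higher and 4 at least 2-fold: 114 tags in fed against 233 in fasting at the strongest, 57 against 120, 58 against 129 and 63 against 148. These 4 lay side by side in intergenic sequence of chromosome 15 (66926950 to 66929019), 5487 to 7483 bp from the nearest start annotated for Ndrg1. A start of Gm17035 was closer, at 625 to 2621 bp. Those with 114 and 58 tags in fed overlapped the same fasting region, so the 4 were neighbouring pieces counted apart. The 16 other kidney regions at Ndrg1 had a median log2 ratio of 0.19 with 3 at least 2-fold higher. A single private region 10979 bp from the start of Vnn1, a pantetheinase and known target of the fasting regulator PPARA, had 24 tags in fed (15.4 to 35.7) and 95 in fasting (76.9 to 116), 3.99 times higher.

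At the edge of the rule, the weakest private regions had a -log10 q of 3.20 in the fed and 2.56 in the fasting list, above the threshold of 2. Just outside it stood strong kidney regions that a single library of another tissue overlapped. The strongest of these, 142 bp from the start of Ccdc198 on chromosome 14, ranked at 98.7 in fed and 99.3 in fasting kidney and was kept out by a fed white adipose region of rank 83.1. The next were nearest to Utp18 (112939 bp), kept out by fasting liver at rank 59.1, and to Glis3 (101272 bp) and Kif12 (301 bp), kept out by fed white adipose at ranks 55.7 and 59.2. Another, nearest to Gm12689 (93678 bp), was kept out by fed liver at rank 26.9.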

How the data were processed

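ATAC-seq peak lists of 16 libraries (8 tissues, fed and fasting, 1 library each from tissue pooled across mice) were analysed. Per the labels and the study's methods, the authors trimmed adapters, aligned reads with Bowtie2 to GRCm38, removed unmapped, duplicate and mitochondrial reads and called peaks with MACS2; versions were not given in the sources used here. File names record a Tn5 shift, a limit on list length and a blacklist filter. The deposited columns used were the fold enrichment (a ratio), -log10 p and -log10 q values at each summit; every column of this kind was used (0 left out).

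Summits that shared 1 set of coordinates were joined into 1 region, which took the strongest of them. Tags at a summit were recovered from the deposited fold and p, and were whole within 0.001 in 100% of regions of each library. Tags were divided by the library background, the lowest expected number. A percentile rank orders the p values of a library from 0 to 100. Distances were taken from the summit to 132629 GENCODE vM21 starts, and sequence came from the RefSeq GRCm38.p6 genome. Shares carry exact (Clopper-Pearson) 95% binomial intervals and tags exact Poisson intervals, both for counting error only. Tissues were ranked by exact permutation of the tissue label.

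The regions, gene lists and motifs were chosen with earlier results of these data known. Named were the 20 genes with most private regions, the 10 largest clusters, the 10 strongest regions, the 5 largest differences each way with at least 20 tags in 1 state, up to 6 genes per list, and per motif the strongest region that holds it; others are said to be chosen after their values were seen. Some items that these rules name are not reported here. Alternatives changed the q threshold, overlap, excluding regions, list length, window, linking gap, motif, scaling and fold. Scripts were tested on simulated data. Python 3.11.15, numpy 2.4.6, pandas 2.3.3, scipy 1.17.1, pysam 0.24.0, samtools 1.23.1 and matplotlib 3.10.9 were used.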

Additional observations from a re-analysis of the deposited data

How the results depend on the processing

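No paired analysis was possible because each group held 1 library. The median log2 ratio of the private regions at matched summits was below 0 under the 7 rules it was run for and with median ratio scaling, where it was -0.12, while that of the other regions turned from -0.08 to 0.02. With q under 1e-06 in both states the number of private regions was 13990, with 13.95% in clusters and 6.43% past 2-fold between states. With the 50000 strongest regions of each kidney library it was 3437, with 19.7% near a start, a median distance of 11656 bp, 1.89% in clusters, HNF1 letters in 1.72%, 1.57% past 2-fold and 47 nephron genes. Over the other rules the number stayed between 18623 and 30083, the highest with liver left out of the exclusion. Near a start lay 8.47% with a window of 1000 bp and 14.8% with protein-coding starts only, where the median distance was 20898 bp. The clustered share was 17.4% with 50% of both lengths overlapping, 25.2% when only regions with q under 0.01 excluded, 23.9% with fasting coordinates, 13.5% with a gap of 5000 bp and 37.7% with 20000 bp. HNF1 letters stood in 0.0360% without a mismatch and in 0.459% within 50 bp of the summit. Past 2-fold in either direction, 8.23% as reported, were 5.06% with 50% overlap, 9.80% with fasting coordinates, 7.60% with median ratio scaling, and 25.7% past 1.5-fold. Settings chosen after seeing the data gave 25.3% in clusters without fed white adipose, 22.3% in clusters and 6.78% past 2-fold where the fasting region was also free of other tissues, and 6.34% past 2-fold at summits within 50 bp. The share at least 2-fold higher in fasting dropped to 0.333% with 50% overlap and to 0.330% with fasting coordinates. At matched summits the share at least 2-fold lower was 1.93% to 6.17% of the private and 0.256% to 1.34% of the other regions over these rules. The cause of these shifts was not tested beyond what each setting removes.

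Depth limits what private can mean, since a weak opening in another tissue can miss its list. The libraries had no replicates, and the lists ended by length, at different q in each library.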

Other observations

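Private sets of the other tissues also differed between states, each between 1 fed and 1 fasting library. The median log2 ratio of fasting over fed ran from -0.82 in brown adipose to 0.45 in liver, and kidney stood at -0.19, seventh of 8 tissues from the highest.

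Genes with several lower private regions at matched summits, looked up after their values were seen, were not all nephron genes. Fndc3a had 5 of 11 at least 2-fold lower in fasting with all 11 below the fed value, AI481877 4 of 4, and Got2, a mitochondrial aminotransferase, 4 of 16. The median log2 ratio was -0.57 at Fndc3a, -1.12 at AI481877 and -0.56 at Got2.

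Among single private regions at least 2-fold higher in fasting at matched summits, the next after Vnn1 was nearest to Heatr4 (2809 bp), with 21 tags in fed and 63 in fasting. Then came those nearest to Sall1 (61618 bp) with 17 and 48, Eya4 (52245 bp) with 34 and 95 and Adamts2 (33730 bp) with 46 and 128. One within 178 bp of a start of Esrrb, which encodes an estrogen-related receptor, had 17 and 43 tags and held ERR letters.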
